A study of Mus musculus with 4 samples.

Results

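Guanylate-binding proteins (Gbp) are large GTPases, relatives of dynamin, whose genes are induced by interferons. The genes were followed in B16-OVA, a line of mouse melanoma cells engineered to express ovalbumin, after transfection for 6 hours by Lipofectamine 2000, a lipid carrier of nucleic acid. The members were the probes that the array annotation assigns to Gbp2, Gbp3, Gbp4, Gbp5, Gbp6, Gbp7, Gbp8, Gbp9, Gbp10 or Gbp11, and these were 10 of 41345 probes. Of the 10 genes, 9 had a probe of their own. Gbp2 was read only by a probe that the annotation shares with its neighbour Gbp2b, and that probe is described here as shared. A further probe for Gbp2b alone was set beside it and is not counted as a member.

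The mock group was 2 arrays of RNA from cells labelled mock transfected, and the AT90ES group was 2 arrays from cells labelled AT90ES transfected. The treatment text names a 90mer double-stranded DNA and does not differ between the groups. Whether the mock cells were given lipid alone or another nucleic acid is therefore not known here, and an effect of the DNA cannot be told apart from one of transfection. No label says that the 2 arrays of a group came from separate cultures, so the p-values cover the spread from array to array, which may be technical. The comparison asks which Gbp genes differ in level between cells labelled AT90ES transfected and cells labelled mock transfected.

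Cells make Gbp proteins mainly after interferon, strongly after interferon gamma and also after the type I interferons that follow the sensing of DNA in the cytosol. Type I interferon acts through a factor complex that includes Stat2 and Irf9 and binds the interferon-stimulated response element, while the response to interferon gamma runs through the gamma-activated site. The proteins assemble on the membranes of vacuoles and bacteria inside the cell, where they work with the immunity-related GTPases and the inflammasomes. Mouse Gbp genes lie in a pair of gene runs. In the RefSeq annotation of GRCm38.p6 the first run reads Gbp5, Gbp7, Gbp3, Gbp2b, Gbp2 and the second reads Gbp8, Gbp9, Gbp4, Gbp10, Gbp6, Gbp11.

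Over 22180 genes, which are not independent replicates, the 2 mock arrays correlated at a Pearson's r of 0.992, the 2 AT90ES arrays at 0.993 and arrays of different groups at 0.987 to 0.989. Of 10 pigment cell markers, which should be present in melanoma cells, 9 lay above background on every array, with Dct, an enzyme of melanin synthesis, at a mean log2 level of 12.9. Of 33 measured markers of myeloid cells, lymphocytes, fibroblasts and endothelium, 9 did so and 0 passed the test. Among all 22180 genes 0.126% were called higher and 0% lower, so 0 of 33 says little about these markers. Background was taken as the 95th percentile of 1108 probes for olfactory receptors (Olfr), a family assumed not to be expressed, which lay at 4.85 to 5.07 over the 4 arrays. A higher level of an RNA can come from more cells that express it or from more RNA per cell, and in these bulk samples the alternatives cannot be told apart.

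Of the 10 Gbp probes, 3 rose in AT90ES cells, those for Gbp7, for Gbp3 and for Gbp2 shared with Gbp2b, and 0 fell. Among all probes limma called 0.0726% higher and 0% lower at an adjusted p under 0.05, with 3.85% higher and 3.15% lower at an unadjusted p under 0.05. The same 3 of the 10 probes were at least 2-fold higher, against 0.694% of all probes. Both AT90ES arrays lay above both mock arrays for 5 of the 10 probes, against 17.1% of all probes, and both lay below for 0 of the 10, against 19.9%. The log2 fold change was above 0 for 9 of the 10, against 46.9%. The median log2 fold change of the 10 probes was 0.50, and that of all probes was -0.02.

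**Figure D1:**
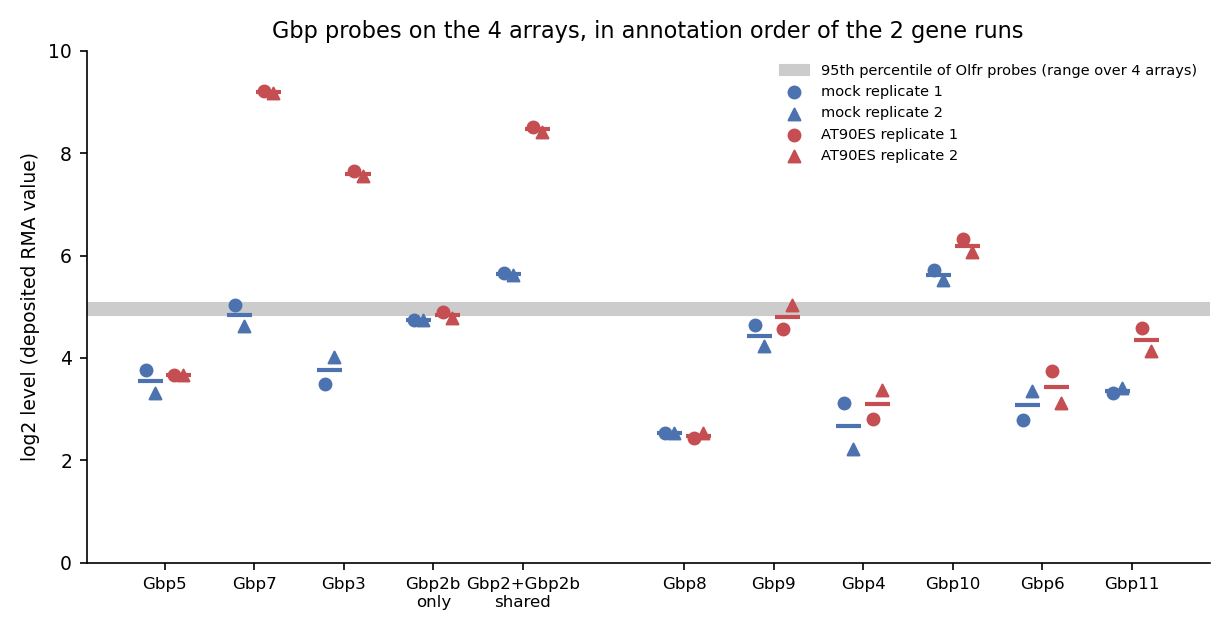
The log2 level (vertical axis, deposited value) of each Gbp probe on the 2 mock arrays (blue) and the 2 AT90ES arrays (red), with the group mean as a short line and the Olfr 95th percentile as a grey band. Both AT90ES points of Gbp7, Gbp3 and the shared probe stand far above both mock points, between 7.55 and 9.22, while most other probes lie under or at the band in both groups.

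Gbp7, a member that has been linked to the assembly of the phagocyte oxidase, had log2 levels of 5.04 and 4.63 in mock and 9.22 and 9.17 in AT90ES cells. The groups did not overlap, and the gap between the nearest arrays of the groups, 4.13, was larger than the distance between the mock arrays, 0.41. The mean rose from 4.84 ± 0.29 to 9.19 ± 0.03 (SD, n = 2), a log2 fold change of 4.36 ± 0.18 (SE) or 20.5-fold with a 95% interval of 14.8 to 28.4, and limma gave an adjusted p = 0.0153. This was the sixth largest rise of all probes, with rank 6 of 41345. Both mock values lay under the Olfr percentile of their arrays, so the rise was measured from a level near background and its exact size is uncertain.

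Gbp3, which belongs to the same run and lies next to Gbp7, had log2 levels of 3.49 and 4.02 in mock and 7.65 and 7.55 in AT90ES cells. Again both AT90ES arrays were high and both mock arrays low, with no overlap. The mean rose from 3.76 ± 0.37 to 7.60 ± 0.07 (SD, n = 2), a log2 fold change of 3.84 ± 0.21 (SE, adjusted p = 0.0321), or 14.3-fold, with a 95% interval of the log2 fold change from 3.29 to 4.40. Its mock values also lay near background, under the Olfr percentile on both arrays. The intervals of the log2 fold changes of Gbp7 (3.88 to 4.83) and Gbp3 overlapped, and the difference between the 2 genes was not tested.

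The probe shared by Gbp2 and Gbp2b had log2 levels of 5.66 and 5.62 in mock and 8.51 and 8.42 in AT90ES cells. Gbp2 encodes a prenylated member that moves to the vacuoles of intracellular parasites. The arrays of each group lay close together and the groups far apart, with means of 5.64 ± 0.03 and 8.46 ± 0.06 (SD, n = 2). The log2 fold change was 2.83 ± 0.13 (SE, adjusted p = 0.0205), or 7.10-fold with an interval of 5.62 to 8.96. Here the mock values stood above the Olfr percentile on both arrays.

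The probe for Gbp2b alone, the gene formerly named Gbp1, had levels of 4.74 and 4.75 in mock and 4.89 and 4.79 in AT90ES cells. Its log2 fold change was 0.10 (95% interval -0.24 to 0.43, adjusted p = 0.915), and it lay above the Olfr percentile on 1 AT90ES array and on no mock array. How much of the shared probe's signal came from each of the genes was not tested. Gbp5, which lies at the start of the same run and is known for a part in assembling the Nlrp3 inflammasome, stood at 3.76 and 3.32 in mock and 3.67 and 3.66 in AT90ES cells. Those levels overlapped and were under the Olfr percentile on all 4 arrays. The log2 fold change of Gbp5 was 0.12 with an interval of -0.37 to 0.61 (adjusted p = 0.929), so a rise like that of its neighbour Gbp7 lay outside the interval, although a change beneath the background of the array could go unseen.

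None of the 6 probes of the second run passed the test, with log2 fold changes from -0.05 to 0.99 and a median of 0.39. At an unadjusted p under 0.05 in limma, 2 of them were higher, Gbp11 and Gbp10, against 3.85% of all probes. Gbp11, which the RefSeq annotation lists as a transcribed pseudogene, had levels of 3.32 and 3.41 in mock and 4.58 and 4.13 in AT90ES cells. The groups did not overlap, yet all 4 values lay under the Olfr percentile. Its log2 fold change was 0.99 ± 0.19 (SE, interval 0.49 to 1.50, unadjusted p = 0.00407, adjusted p = 0.485).

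Gbp10 was the only single-gene probe of the family above the Olfr percentile on all 4 arrays. It read 5.72 and 5.52 in mock and 6.32 and 6.08 in AT90ES cells, so both AT90ES arrays were the higher ones. The log2 fold change of Gbp10 was 0.57 ± 0.16 (SE, interval 0.16 to 0.99), or 1.49-fold, with an unadjusted p = 0.0170 and an adjusted p = 0.626.

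The other 4 probes of this run had overlapping groups. Gbp6 read 2.80 and 3.36 in mock and 3.74 and 3.12 in AT90ES cells, with a log2 fold change of 0.35 (adjusted p = 0.861). Gbp4, known as a restraint on the interferon factor Irf7, read 3.12 and 2.23 in mock and 2.81 and 3.38 in AT90ES cells, with 0.42 (adjusted p = 0.865). The spread within its groups, SDs of 0.63 and 0.40, was about as large as the difference. Gbp9 read 4.64 and 4.23 against 4.57 and 5.03, with a log2 fold change of 0.36 (adjusted p = 0.823), and 1 AT90ES value was above the Olfr percentile. Gbp8 read 2.53 on each mock array against 2.43 and 2.53 in AT90ES cells, with a log2 fold change of -0.05 (interval -0.38 to 0.29, adjusted p = 0.965).

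Set against background, 5 of the 10 probes lay under the Olfr percentile on every array, 3 lay above it on some arrays and 2 on all. A filter that kept probes above the percentile on at least 2 arrays kept 4 of the 10, and it kept Gbp7 and Gbp3 only through their AT90ES arrays. Members of the family are close in sequence, and a probe may read more than 1 of them, which was not tested.

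The rises lay in the first run, with 3 of its 4 member probes against 0 of 6 in the second. The difference between the runs was not tested. Beside the first run, the nearest measured protein-coding genes were Bmpr1b, Pdlim5, Kyat3 and Gtf2b, with log2 fold changes of -0.17, 0.13, 0.16 and -0.07. Beside the second run, Zfp951, Abcg3, Lrrc8b and Lrrc8c stood at 0.57, -0.34, 0.13 and 0.10. None of the 8 neighbours passed the test (adjusted p from 0.804 to 0.957).

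**Figure D2:**
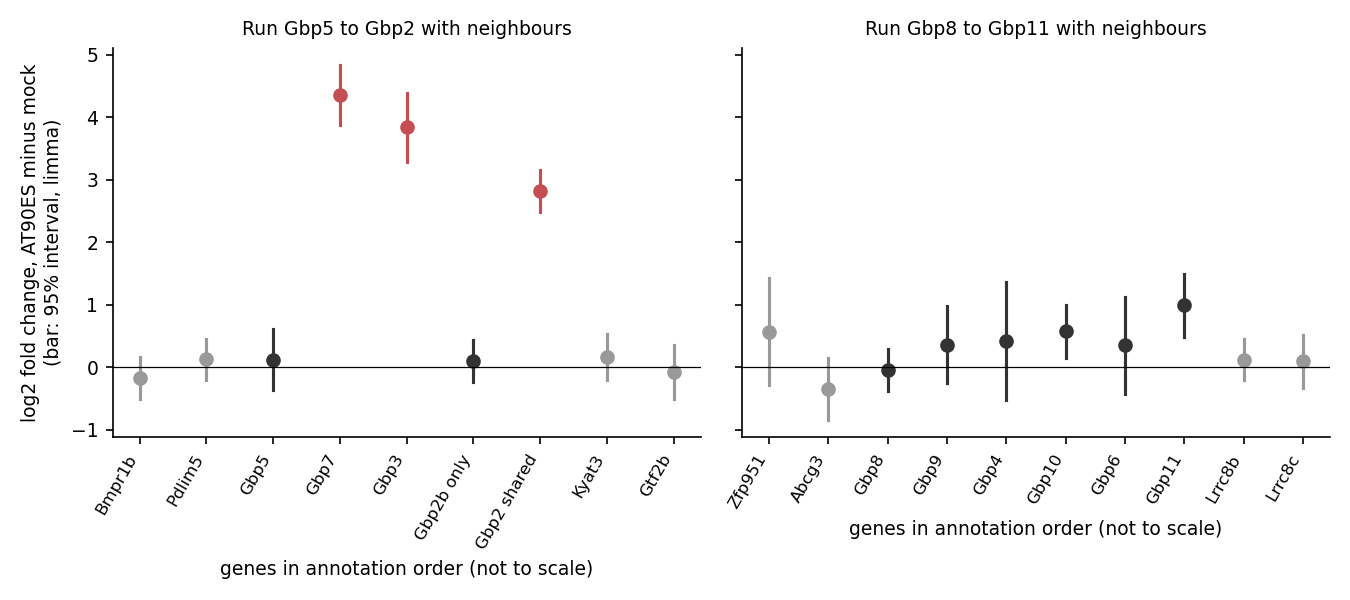
The log2 fold change of AT90ES over mock (vertical axis, bars are limma's 95% intervals) for the Gbp probes and the nearest measured genes on either side of each run, in annotation order and not to scale. Red marks an adjusted p under 0.05, black the other Gbp probes and grey the neighbours. Gbp7, Gbp3 and the shared probe stand between 2.83 and 4.36, and the intervals of their outer neighbours include 0.

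**Figure D3:**
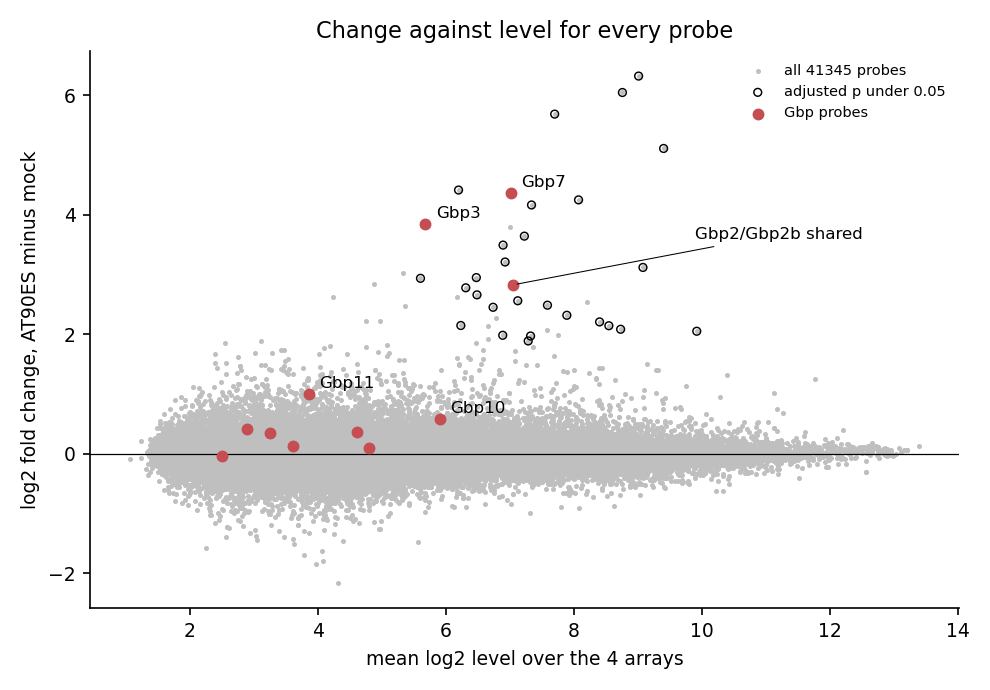
The log2 fold change (vertical axis) against the mean log2 level over the 4 arrays (horizontal axis) for all 41345 probes in grey, probes with an adjusted p under 0.05 ringed, and the 10 Gbp probes with the Gbp2b probe in red. The probes of Gbp7, Gbp3 and the shared pair stand apart from the mass of probes. The other Gbp probes have log2 fold changes from -0.05 to 0.99, the highest being Gbp11 (rank 297 of 41345).

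A promoter is shown for each gene of the family that had one among the sequences used. These genes all lay in the first run. Of the 10 member genes, 4 had a promoter among the RefSeq sequences of GRCm38.p6 used here, and Gbp2b had one too. Gbp4, Gbp6, Gbp8, Gbp9, Gbp10 and Gbp11 had none and are not shown, so the runs could not be compared by promoter. Each window runs from 250 bases before to 50 after the annotated start, on the plus strand. Capitals mark each match, on either strand, to the core of the interferon-stimulated response element, searched as GAAA, any 2 bases and GAAA. Each match read as TTTC, any 2 bases and TTTC on the strand shown.
Gbp7, chr3:142530086-142530385: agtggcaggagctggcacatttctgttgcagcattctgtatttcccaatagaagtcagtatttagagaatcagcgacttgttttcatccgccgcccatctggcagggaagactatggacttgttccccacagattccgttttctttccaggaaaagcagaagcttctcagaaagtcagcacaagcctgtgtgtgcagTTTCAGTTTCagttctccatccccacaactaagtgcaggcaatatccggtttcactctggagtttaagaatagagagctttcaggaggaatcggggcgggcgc
Gbp3, chr3:142559794-142560093: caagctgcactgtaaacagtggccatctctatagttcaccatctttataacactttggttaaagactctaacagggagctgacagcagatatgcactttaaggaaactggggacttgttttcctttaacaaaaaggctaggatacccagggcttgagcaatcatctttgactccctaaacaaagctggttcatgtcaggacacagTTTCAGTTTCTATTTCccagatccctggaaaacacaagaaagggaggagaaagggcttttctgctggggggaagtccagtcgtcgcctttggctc
Gbp2, chr3:142620413-142620712: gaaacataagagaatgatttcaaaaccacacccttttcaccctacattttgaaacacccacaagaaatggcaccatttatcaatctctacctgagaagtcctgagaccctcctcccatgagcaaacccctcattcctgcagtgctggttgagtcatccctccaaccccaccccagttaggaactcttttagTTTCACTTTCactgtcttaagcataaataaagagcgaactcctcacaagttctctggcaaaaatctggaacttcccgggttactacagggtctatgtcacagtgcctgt
Gbp2b, chr3:142594597-142594896: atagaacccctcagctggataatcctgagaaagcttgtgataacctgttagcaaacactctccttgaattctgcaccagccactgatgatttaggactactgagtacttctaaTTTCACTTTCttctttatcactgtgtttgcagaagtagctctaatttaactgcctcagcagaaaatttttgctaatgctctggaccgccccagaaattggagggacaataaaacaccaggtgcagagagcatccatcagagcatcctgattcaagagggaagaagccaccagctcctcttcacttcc
Gbp5, chr3:142496684-142496983: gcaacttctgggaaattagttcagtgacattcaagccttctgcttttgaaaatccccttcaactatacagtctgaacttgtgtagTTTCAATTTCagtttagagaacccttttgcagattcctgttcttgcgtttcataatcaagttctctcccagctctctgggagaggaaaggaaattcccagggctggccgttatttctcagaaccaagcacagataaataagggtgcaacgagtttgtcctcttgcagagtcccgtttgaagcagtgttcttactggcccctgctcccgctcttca

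A match was present in the promoter of each of these 5 genes, against 3.44% of 32851 RefSeq promoters. It lay from -53 to -44 in Gbp7 and from -59 to -50 in Gbp2, counted from the start site. Gbp3 had 2 matches that overlap, from -45 to -36 and from -39 to -30. Only 0.225% of all promoters had 2 or more. A second annotated start of Gbp3 had 0. The match lay from -137 to -128 in Gbp2b and from -165 to -156 in Gbp5. Whether distance from the start goes with the change in level was not tested. The gamma-activated site, searched as TTCNNNGAA on both strands, was found in 8.3% of all promoters. Gbp7 had 2 such matches, starting at -106 and -87, and Gbp5 had 2, starting at -245 and -52. In Gbp7 and Gbp5 they did not overlap the matches in capitals. The windows of Gbp3, Gbp2 and Gbp2b had 0. A match is a description of the letters. Promoters with a match included those of Gbp5 and Gbp2b, whose own probes had log2 fold changes of 0.12 and 0.10. The Gbp5 probe lay under the Olfr percentile on all 4 arrays, and the Gbp2b probe lay above it on 1. The probe that Gbp2b shares with Gbp2 stood at 2.83, and the part of each gene in it was not tested.

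**Figure D4:**
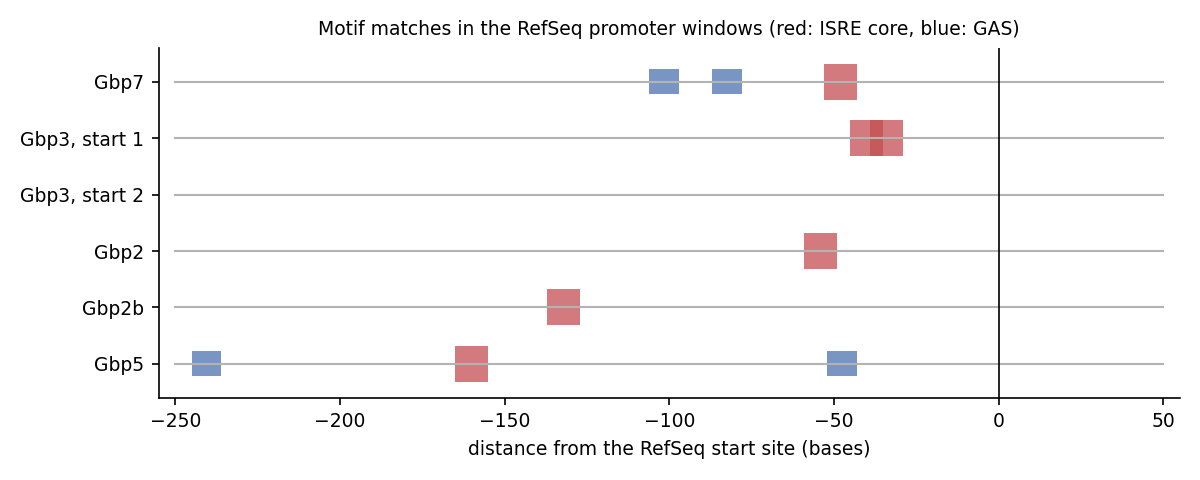
Matches to the response element core (red) and the gamma-activated site (blue) along each promoter window, with the distance from the RefSeq start site in bases on the horizontal axis. The red marks of Gbp7, the first start of Gbp3 and Gbp2 lie within 60 bases of the start, and those of Gbp2b and Gbp5 lie further away. The second start of Gbp3 carries no mark, and a link between distance and change was not tested.

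Among the interferons that induce the family, 0 of 19 measured genes passed the test in either direction, with a median log2 fold change of -0.05. Ifng, the gene of interferon gamma, read 4.88 and 4.79 in mock and 4.54 and 4.86 in AT90ES cells, under the Olfr percentile on each. Ifnb1, the gene of interferon beta, read 3.15 and 3.29 against 2.89 and 3.05 (log2 fold change -0.25, adjusted p = 0.805), also under it on all 4 arrays. Ifna1 and Ifnl2 had the highest mean levels of the list, with log2 fold changes of 0.08 and -0.13.

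Of 9 measured receptor chains and Janus kinases, 0 passed, with a median log2 fold change of 0.02. The members with the highest mean levels, Il10rb and Jak1, stood at -0.26 and 0.19. Ifngr2, a chain of the interferon gamma receptor named here after its values were seen, read 8.50 and 8.64 in mock and 9.74 and 9.54 in AT90ES cells. The groups of Ifngr2 did not overlap, with a log2 fold change of 1.07 (interval 0.69 to 1.46, adjusted p = 0.277), and it passed with an intensity trend in the prior (adjusted p = 0.0180). Of 9 STAT and IRF factors, 1 rose and 0 fell, with a median of 0.43 against -0.02 over all genes. One probe per gene was used for these lists, and 0.126% of the 22180 genes were called higher and 0% lower. The risen factor was Stat2, the partner of Irf9 in the complex of type I interferon, with levels of 5.89 and 5.90 in mock and 7.81 and 7.95 in AT90ES cells, a log2 fold change of 1.98 ± 0.13 (SE, adjusted p = 0.0442). With arrays centred on the reference genes Stat2 was not called. Irf9 differed by 1.26 on the log2 scale (adjusted p = 0.188) and Irf1, a factor of both interferon pathways, by 1.23 (adjusted p = 0.277), each with both AT90ES arrays above both mock arrays. Irf9 passed when 1 probe per gene was tested (adjusted p = 0.0308), among probes with a symbol (0.0328) and with an intensity trend (0.0347).

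Of 8 inhibitors of interferon signalling, 1 rose and 0 fell, with a median of 0.13. It was Usp18, the enzyme that removes Isg15 and blocks the type I receptor, with a log2 fold change of 2.78 ± 0.18 (SE, adjusted p = 0.0396). Of 10 measured targets linked to interferon gamma, 0 passed, with a median of 0.12. The 2 with the highest mean levels were Psmb10, an immunoproteasome subunit, with a log2 fold change of 0.36, and Irf1.

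The immunity-related GTPases, which act with the Gbp proteins on vacuoles, had 1 of 10 measured members higher and 0 lower, with a median log2 fold change of 0.37. Irgm1 rose by 2.45 ± 0.14 (SE, adjusted p = 0.0321), while Irgm2 stood at 2.22 (adjusted p = 0.277) and Igtp at 1.68 (adjusted p = 0.0815), both with non-overlapping groups. Igtp passed when 1 probe per gene was tested (adjusted p = 0.00844). Among 13 measured relatives in the dynamin superfamily, 1 rose and 0 fell, with a median of 0.04. It was Mx2, an antiviral GTPase, at 4.41 ± 0.14 (SE, adjusted p = 0.00722), beside Mx1 at 2.84 (adjusted p = 0.217). With 1 probe per gene Mx1 passed too (adjusted p = 0.0413). Both mock values of Irgm2, Igtp, Mx2 and Mx1 lay under the Olfr percentile, so the exact sizes of their changes are uncertain. Stat2, Usp18, Irgm1 and Mx2 lost their calls when any 1 array was left out of the fit of all probes and kept them among probes with a gene symbol.

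Of 6 enzymes that attach a prenyl anchor, as Gbp2 and Gbp5 carry, or process the protein end after it, 0 passed, with a median of -0.09. Zmpste24, a protease that acts after the lipid is attached, stood at 0.05 and Fnta, a subunit of the enzymes that attach it, at -0.16. Of 16 autophagy and ubiquitin partners, 0 passed, with a median of 0.10, Sqstm1 at 0.37 and Gabarap at 0.11. The ubiquitin ligases Trim21 and Rnf213, named here after their values were seen, had log2 fold changes of 1.92 (interval 1.39 to 2.45, adjusted p = 0.172) and 1.18 (interval 0.83 to 1.54, adjusted p = 0.196), each with both AT90ES arrays above both mock arrays. When 1 probe per gene was tested they passed, with adjusted p = 0.0254 and 0.0330. Of 13 inflammasome and pyroptosis genes, 0 passed, with a median of 0.09, Casp8 at 0.09 and Ninj1 at -0.01. Casp4, the caspase that senses bacterial lipopolysaccharide, had a log2 fold change of 0.12 and lay under the Olfr percentile on all arrays, and Gsdmd, the pore former that it cleaves, stood at -0.31 (adjusted p = 0.741).

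The pattern over the 4 arrays was set against those of 20601 probes of genes with an approved symbol. Each probe's own mean was taken away first, since the brightness of different probes cannot be compared, and likeness was the root mean square difference of these centred log2 values. Centring was chosen after the data were seen. Nearest to Gbp7 were Isg15 at 0.12, Rsad2 at 0.13 and Mx2 at 0.21, and nearest to Gbp3 were Parp14 at 0.13, Ddx58 at 0.30 and Rsad2 at 0.31. Without centring, the nearest were Isg15, Ddx58 and Parp14 for Gbp7 and Mx2, Klhl38 and Apol9b for Gbp3. The Klhl38 probe was not the brightest probe of its gene, and it did not pass the test (limma adjusted p = 0.176). After centring, likeness rests mainly on the size of the log2 fold change. By that size Isg15, Rsad2 and Mx2 ranked 8, 7 and 5 of all probes, beside rank 6 for Gbp7. Shared control of these genes was not tested. The mock levels of Gbp7 and Gbp3 also lay near background, which limits what likeness can show.

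With all 4 arrays, the 3 probes also passed with an intensity trend in the prior (0.302% of all probes higher), among probes with a gene symbol (0.383%), with a robust prior (0.0726%) and with arrays centred on reference genes (0.0629%) or on their median (0.0798%). They also passed with dim probes left out (0.326%), but Gbp7 and Gbp3 entered that fit only through the AT90ES arrays on which they were high, so it is no support for their calls. With 1 probe per gene, which leaves out the shared probe, Gbp7 and Gbp3 passed (0.415% of genes higher). With the replicate number as a block (0.0290%) Gbp7 and Gbp3 passed and the shared probe did not (adjusted p = 0.0539), and with the block crossed (0.00484%), an alternative chosen after the data were seen, none of the 3 did.

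With any 1 array left out of the fit of all probes, none of the 3 passed, and all probes together gave 0 to 3 calls (0% to 0.00726%). Over those fits the adjusted p was 0.0745 to 0.338 for Gbp7, 0.0823 to 0.455 for Gbp3 and 0.178 to 0.339 for the shared probe, while the log2 fold changes stayed between 4.15 and 4.56, 3.58 and 4.10, and 2.78 and 2.87. Among the 25335 probes with a gene symbol, where 0.118% to 0.209% were called higher (0.205% and 0.138% in the other two fits), all 3 passed without each array in turn, a test chosen after the data were seen, with adjusted p of 0.000886 to 0.0164, 0.00103 to 0.0307 and 0.00441 to 0.0194. With 2 arrays a group an exact permutation test cannot give a two-sided p below 0.333.

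**Figure D5:**
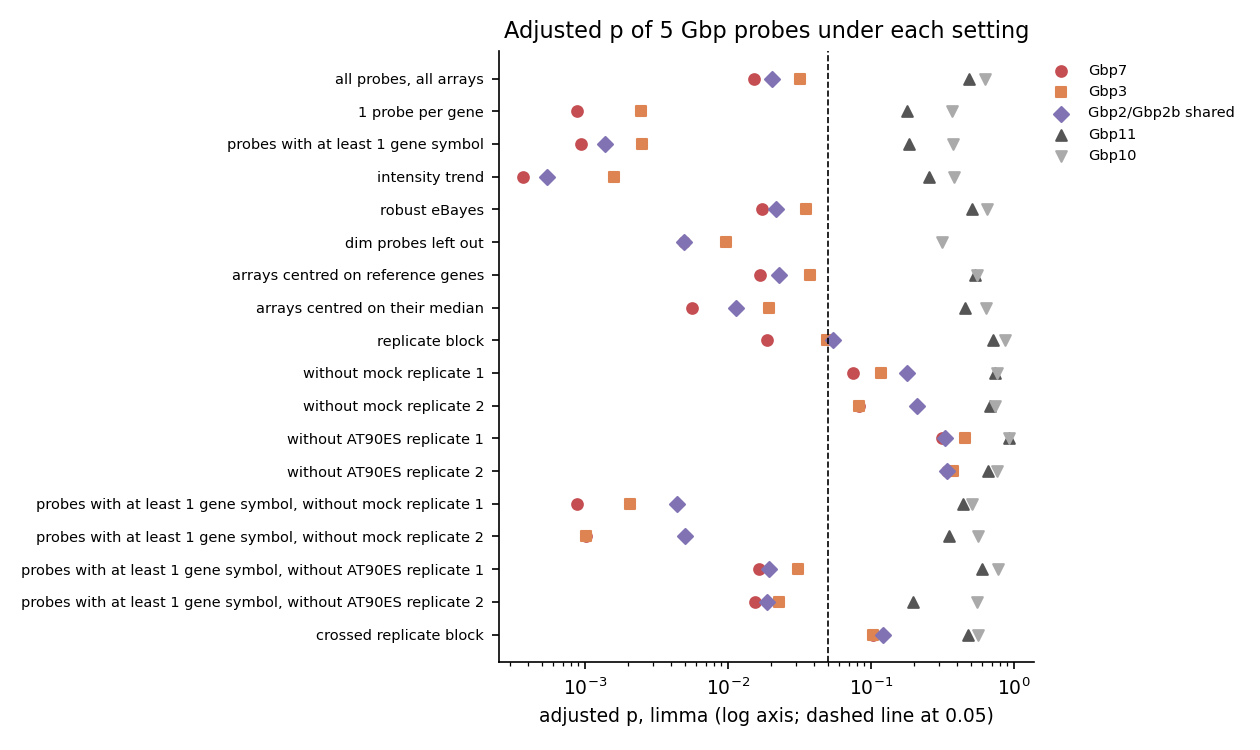
The limma adjusted p (horizontal log axis, dashed line at 0.05) of 5 Gbp probes under each setting tried. Gbp7, Gbp3 and the shared probe lie left of the line in most fits with all arrays and right of it when 1 array is left out of the fit of all probes or a crossed block is used, and Gbp11 and Gbp10 lie right of it in each.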

How the data were processed

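RNA of 2 mock and 2 AT90ES samples was measured, 300 ng each, on 1 array per sample. The authors deposited log2 levels for 41345 probes. The submitters' processing notes name RMA, with no version or settings. RMA equalises arrays, so changes are relative to other probes. Precision is limited by the number of arrays, 2 in each group, and not by depth. Probes were named from the platform annotation: 23521 had 1 symbol, 1814 several and 16010 none.

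Every probe was fitted with limma 3.58.1 in R 4.3.3 (lmFit and eBayes, no covariate, no filter), so that the shared probe entered the same adjustment (Benjamini-Hochberg, threshold 0.05, two-sided). All adjusted p-values are from limma; the fit had 2 residual and 2.83 prior degrees of freedom. In lists the brightest probe stood for its gene. Members and lists were chosen with earlier results of these data known. All Gbp probes were named, and per list up to 4 members past the threshold or else the 2 brightest, with preset upstream and partner genes, the nearest neighbours and patterns; others are named after their values were seen. Of the steps, only the limma fit without block or trend was tested on simulated data, with set changes and independent noise. Alternatives changed the probes tested, the eBayes prior, the scaling, the block and the arrays.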

Additional observations from a re-analysis of the deposited data

How the results depend on the processing

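The log2 fold changes of Gbp7, Gbp3 and the shared probe kept their direction in each alternative. Of the settings with all 4 arrays, no block and no filter on dim probes, none changed a call of a Gbp probe that it tested. In all, 92 genes were called higher with 1 probe per gene, against 28 genes in the fit of all probes. Probes called higher numbered 97 over probes with a symbol, 125 (and 3 lower) with an intensity trend and 67 with dim probes left out, against 30. The last setting says nothing about the stability of Gbp7 and Gbp3, which it kept only through their AT90ES arrays. More list members were called higher with 1 probe per gene, with probes with a symbol and with the trend. They included 2 immunity-related GTPases (Irgm1 and Igtp) and 2 STAT and IRF factors (Stat2 and Irf9). Also included were 2 autophagy and ubiquitin partners (Trim21 and Rnf213) and 2 dynamin relatives (Mx2 and Mx1). The trend added 1 receptor gene (Ifngr2). Without dim probes 2 immunity-related GTPases, Irgm1 and Igtp, were higher. Igtp entered that fit only through the AT90ES arrays on which it was high, so its call there is no support. With arrays centred on the reference genes 0 STAT and IRF factors passed. With the replicate block 12 probes were higher, the shared probe (2.83, adjusted p = 0.0539) lost its call, and 0 immunity-related GTPases, factors and inhibitors passed. The numbers are not known to pair the arrays: deviations of same-numbered arrays correlated at -0.17. With the crossed replicate block, chosen after the data were seen, 2 probes were higher and 0 Gbp probes or list members passed, with Gbp7 at 4.36, Gbp3 at 3.84 and the shared probe at 2.83. Without 1 array in the fit of all probes the log2 fold changes were 4.15 to 4.56 for Gbp7, 3.58 to 4.10 for Gbp3 and 2.78 to 2.87 for the shared probe, with 0 to 3 calls in all, 0 Gbp probes and 0 list members. Over probes with a symbol without 1 array the calls higher ranged from 30 to 53 (52 without mock replicate 1 and 35 without AT90ES replicate 2), 3 Gbp probes, 1 to 3 immunity-related GTPases, 0 to 1 partners and 1 to 2 dynamin relatives. Fits that left out 1 array assume that the lone array of a group varies like the other group. For the probes not called, Gbp5, Gbp8 and Gbp4 changed sign in at least 1 fit without an array. Causes were not tested. The shared probe could not be fitted with 1 probe per gene, nor 6 Gbp members with dim probes left out. Signals near background limit the changes that could be seen for Gbp5, Gbp4, Gbp6, Gbp8, Gbp9 and Gbp11.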

Other observations

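Some GTPases of the interferon response had no probe of their own and were read by probes annotated to more than 1 gene. The 2 probes shared by Tgtp1 and Tgtp2 had log2 fold changes of 0.18 and 0.23, with adjusted p = 0.894 and 0.821 in limma. The probe shared by Ifi47 and Olfr56 stood at 0.11 (adjusted p = 0.918). The 4 probes that include Gvin1, a very large inducible GTPase, ranged from -0.68 to 0.01, and none passed.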
